A study of Mus musculus with 2 samples.

Results

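The genes described here are 44 nucleolar factors that build the ribosome, chosen by gene symbol, and all 44 were found once each among the 55487 named genes of the deposited files. The series compared LPC-HRas cells, a line labelled as mouse hepatocellular carcinoma cells from liver, that had been infected with a lentivirus encoding a short hairpin RNA. One group carried shRFP, the control hairpin against red fluorescent protein, and the other carried shETV4, the hairpin against Etv4, an ETS-family transcription factor. There was 1 library per group, made from total RNA, and the labels name 1 hairpin for each target and give no time after infection. No difference below therefore has a replicate check, and no p-value or error can be given; every statement describes these 2 libraries.

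Ribosomes are assembled in the nucleolus. RNA polymerase I transcribes a long precursor RNA there, small nucleolar ribonucleoproteins (snoRNPs) of the box C/D and box H/ACA kinds guide its chemical modification, and large complexes fold and cut it into the RNAs of the small and the large subunit. Growing and dividing tumour cells run this pathway at a high rate, and many of its genes are known targets of MYC.

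Values are TPM, a transcript abundance, a length-corrected share of each library that holds no record of depth, so the counting error of a value is unknown. A difference is log2(TPM + 1) in the shETV4 library minus log2(TPM + 1) in the shRFP library. A gene was called lower or higher when that difference reached -1 or 1, which is 2-fold, and it counted as measured where either library reached 1 TPM. In bulk RNA, fewer transcripts per cell and fewer cells that express a gene cannot be told apart. Etv4, the targeted gene, was at 73.2 TPM under shRFP and at 16.2 TPM under shETV4. Of 7 hepatocyte markers none was measured, with Alb listed at 0 in both libraries. Of 5 biliary or progenitor markers 3 were measured (Krt19, Sox9 and Spp1), of 7 mesenchymal markers 6, of 6 leukocyte markers 1 (Cd68) and of 4 endothelial markers none, so no defining hepatocyte transcript reached 1 TPM in either group. The biliary or progenitor list summed to 479 TPM under shRFP and 558 TPM under shETV4, the mesenchymal list to 6209 and 5605 TPM. None of the measured markers was called, but 3 from the biliary and mesenchymal lists differed by more than 0.5 in either direction: Acta2 was at 1256 and 655 TPM, a difference of -0.94, Sox9 at 28.0 and 45.4 TPM, a difference of 0.68, and Col3a1 at 367.5 and 538 TPM, a difference of 0.55. Cd68 was near the limit of 1 TPM, at 1.01 and 1.98 TPM. The part of these markers in the results below was not tested.

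All 44 nucleolar genes were measured, and most were lower under shETV4. Lower values under shETV4 were found for 37 genes, or 84.1%, against 58.3% of the 12968 named genes measured. Of the 44 genes, 5 were called lower (Ncl, Npm1, Nop58, Wdr43 and Heatr1) and none was called higher. Across all measured genes 7.06% were called lower and 3.39% higher. Among the 5773 genes with a mean level no lower than the lowest of the 44, 3.83% were called lower and 2.01% higher. The median difference was -0.28 over the 44 genes and -0.10 over all measured genes. None of the 5 was past 2-fold once the trend with GC content that all genes show was subtracted.

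**Figure D1:**
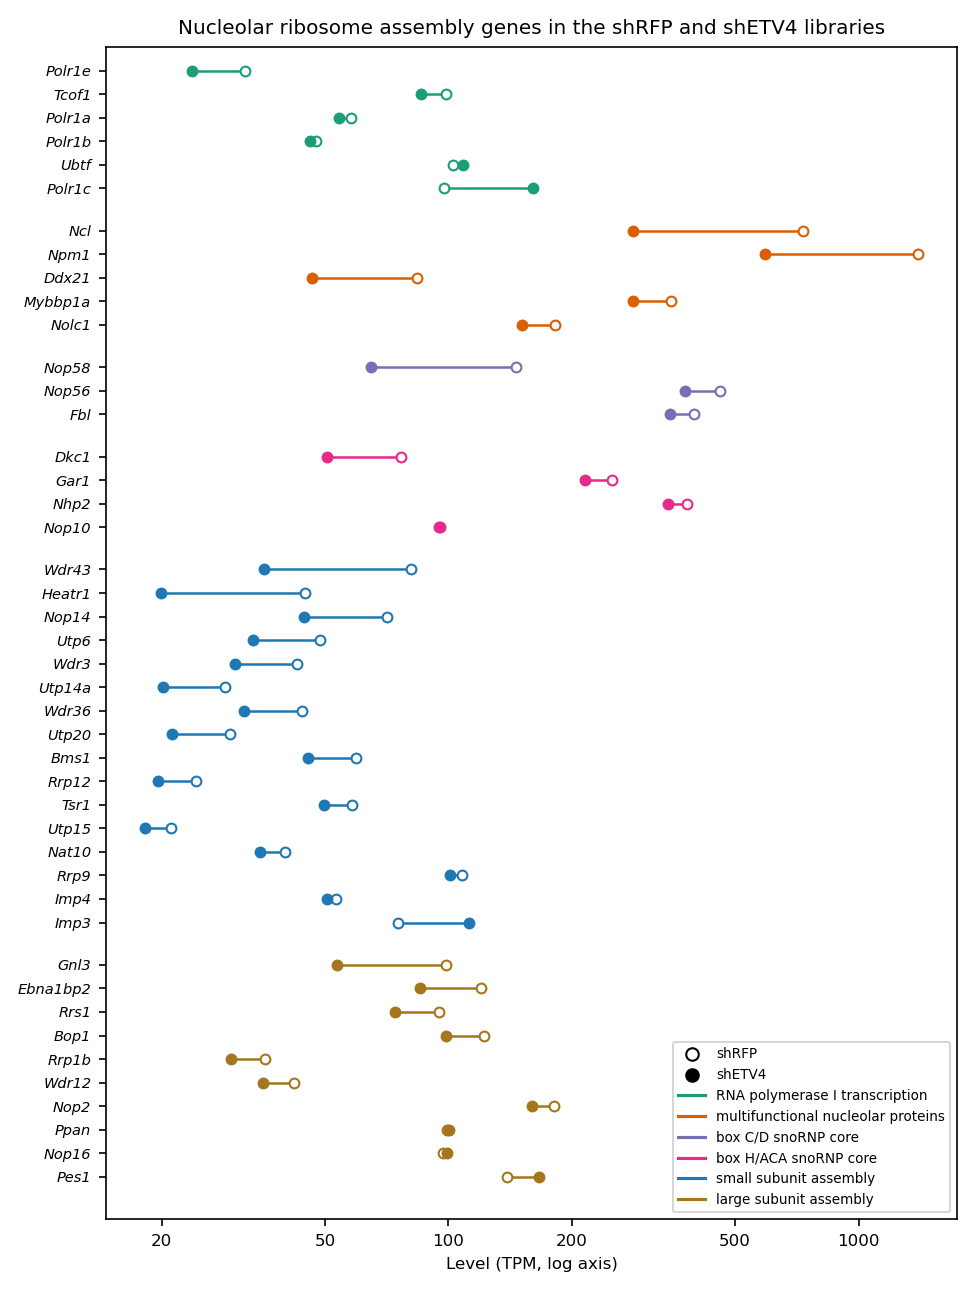
Level of each of the 44 genes in TPM on a log axis, with an open circle for the shRFP library and a filled circle for the shETV4 library, 1 library each. Colours mark the role in ribosome assembly. Ncl, Npm1, Nop58, Wdr43 and Heatr1 have the longest lines toward lower values, and Polr1c and Imp3 the longest toward higher values.

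The 44 genes together made up 6850 TPM in the shRFP library and 4896 TPM in the shETV4 library, a ratio of 1.40. Most of that gap came from the nucleolar proteins nucleolin and nucleophosmin. Ncl and Npm1 summed to 2132 TPM under shRFP and 874 TPM under shETV4, which was 64.4% of the summed difference and took their share of the set from 31.1% to 17.8%. The other 42 genes summed to 4718 and 4022 TPM, a ratio of 1.17, and 3 of them were called lower, with a median difference of -0.26.

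Multifunctional nucleolar proteins had the lowest median difference of the 6 role groups, -0.84, and all 5 were lower under shETV4. Nucleolin, an RNA-binding protein of the nucleolus that takes part in precursor transcription and folding, is encoded by Ncl (ENSMUSG00000026234, chromosome 1, 86344719 to 86359400, minus strand, GRCm38). Ncl was at 733 TPM under shRFP and at 282 TPM under shETV4, 2.60-fold lower, and its difference of -1.38 was the lowest of the 44. Npm1 (ENSMUSG00000057113, chromosome 11, 33152287 to 33163206, minus strand) encodes nucleophosmin, a chaperone of the granular part of the nucleolus. It had the highest level of the 44 in both libraries, at 1399 and 592 TPM, and was 2.36-fold lower under shETV4, a difference of -1.24. Ncl by contrast went from rank 2 of the 44 to rank 6, below Nop56, Fbl, Nhp2 and Mybbp1a.

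Outside that pair, differences in the group were smaller. Ddx21, an RNA helicase that links polymerase I transcription to processing, was at 84.0 and 46.6 TPM, 1.80-fold lower and short of a call. Mybbp1a, a MYB-binding nucleolar protein, was at 348 and 282 TPM. Nolc1, which chaperones snoRNPs, had the highest difference of the group, -0.27, at 182 and 151 TPM.

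The core proteins of the box C/D snoRNP did not differ to the same extent. This particle places methyl groups on ribosomal RNA, and its scaffold is a pair of related proteins encoded by Nop56 and Nop58. Nop58 (ENSMUSG00000026020, chromosome 1, 59684971 to 59719044, plus strand) was at 147 TPM under shRFP and 64.7 TPM under shETV4, 2.27-fold lower, a difference of -1.17. Nop56 was at 460 and 377 TPM, 1.22-fold lower, a difference of -0.29. The ratio of Nop56 to Nop58 TPM was thus 3.14 under shRFP and 5.82 under shETV4. Fbl, the methyltransferase fibrillarin, had the highest difference of the 3, -0.19, at 397 and 347 TPM. With the GC trend of all genes subtracted, the 3 lay closer together, at -0.56 for Nop58, -0.22 for Nop56 and -0.32 for Fbl.

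No core protein of the box H/ACA snoRNP, which converts uridines of ribosomal RNA into pseudouridine, was called in either direction. Dkc1, the pseudouridine synthase, had the lowest difference, -0.59, at 76.8 and 50.7 TPM. Gar1 was at 251 and 215 TPM and Nhp2 at 382 and 344 TPM. Nop10, the smallest subunit, was at 95.1 and 95.3 TPM, the closest of the 44 to a difference of 0, and the group's median was -0.19.

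Genes of RNA polymerase I transcription had a median difference of -0.07, and none of the 6 was called. Polr1a and Polr1b, the catalytic subunits of the polymerase, were at 57.7 and 47.6 TPM under shRFP and at 54.0 and 45.9 TPM under shETV4. Ubtf, the architectural factor of ribosomal DNA, was at 102 and 109 TPM. Tcof1, the treacle protein that recruits the polymerase, was at 98.9 and 85.6 TPM. Within the group the extremes were both polymerase subunits. Polr1e, at 32.0 and 23.7 TPM, had the lowest difference, -0.42. Polr1c (ENSMUSG00000067148, chromosome 17, 46243920 to 46248054, minus strand), which polymerases I and III share, was at 97.7 TPM under shRFP and 161 TPM under shETV4. It was 1.65-fold higher, and its difference of 0.71 was the highest of the 44.

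Small subunit assembly was the largest group, and 15 of its 16 genes were lower under shETV4, with a median difference of -0.42. With the GC trend of all genes subtracted, the median was -0.20 with 12 of 16 below 0. That was not lower than the -0.25 of large subunit assembly. Most of the 16 genes belong to the processome, the complex that forms on the front end of the precursor RNA. Wdr43 (ENSMUSG00000041057, chromosome 17, 71615895 to 71659031, plus strand) and Heatr1 (ENSMUSG00000050244, chromosome 13, 12395027 to 12440289, plus strand) both encode subunits of UTP-A, the subcomplex that binds the precursor first. Wdr43 was at 80.9 and 35.5 TPM, 2.28-fold lower, a difference of -1.17. Heatr1 was at 44.7 and 19.98 TPM, 2.24-fold lower, a difference of -1.12. Utp15, of the same subcomplex, was at 21.1 and 18.2 TPM.

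The 3 UTP-B subunits among the 44 lay close to one another in the deposited values. Wdr3, Wdr36 and Utp6 were at 42.8, 44.04 and 48.6 TPM under shRFP and at 30.2, 31.7 and 33.4 TPM under shETV4. Their differences ran from -0.53 to -0.46. With the GC trend of all genes subtracted they lay further apart, at -0.27 (Wdr3), 0.14 (Wdr36) and -0.14 (Utp6). Utp20 and Utp14a, which act in processome folding and release, were at 29.4 and 28.6 TPM under shRFP and at 21.2 and 20.1 TPM under shETV4. Nop14, a processome core protein, was the next lowest after the called pair, at 71.0 and 44.4 TPM and a difference of -0.67.

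The remaining small subunit genes were within 1.5-fold. Bms1, a GTPase of the processome, was at 59.4 and 45.4 TPM, and Rrp12, which serves export of the precursor particle, at 24.3 and 19.5 TPM. Nat10, an acetyltransferase of the small subunit RNA, was at 40.1 and 34.7 TPM, and Tsr1, a late maturation factor, at 58.2 and 49.8 TPM. Rrp9, which is specific to the U3 snoRNP, was at 108 and 101 TPM. Imp4 and Imp3 hold U3 to the precursor; Imp4 was at 53.1 and 50.7 TPM. Imp3 was the only gene of the group with a higher value under shETV4, at 75.6 and 112 TPM, 1.48-fold higher, a difference of 0.56.

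None of the 10 large subunit assembly genes was called, and their median difference was -0.25. Gnl3, the nucleolar GTPase nucleostemin, had the lowest, -0.88, at 98.9 and 53.5 TPM, 1.85-fold lower. Ebna1bp2, an early assembly factor, was at 120 and 85.3 TPM, and Rrs1, which helps to bring in the 5S particle, at 94.97 and 74.2 TPM. The 3 subunits of PeBoW, a complex needed for processing of the large subunit RNA, did not share a direction. Bop1 was at 122 and 98.4 TPM and Wdr12 at 42.1 and 35.3 TPM, both lower. Pes1 was at 139 and 166 TPM, 1.199-fold higher, a difference of 0.26. With the GC trend of all genes subtracted, Bop1 was at -0.45, whereas Wdr12 and Pes1 were both above 0, at 0.28 and 0.33.

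The other large subunit genes lay within 1.5-fold. Nop2, a methyltransferase of the large subunit RNA, was at 181 and 160 TPM. Rrp1b was at 35.6 and 29.6 TPM. Nop16 and Ppan had almost the same level in both libraries, at 97.0 and 99.0 TPM under shRFP and at 99.4 and 101 TPM under shETV4. At 1.5-fold, 9 of the 44 genes were called lower and 1 higher (Polr1c), against 20% and 8.61% of all measured genes.

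**Figure D2:**
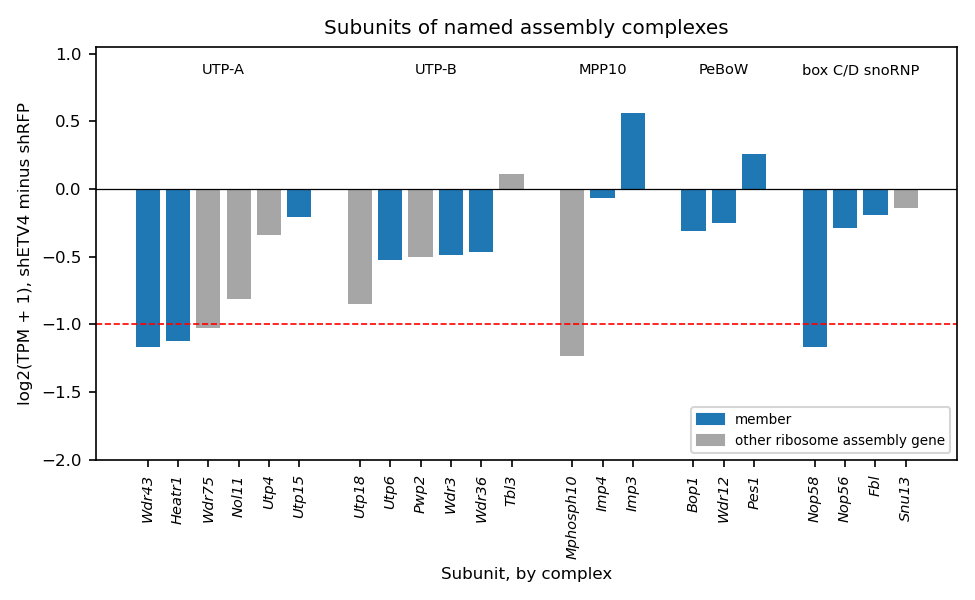
Difference in log2(TPM + 1), shETV4 minus shRFP, for subunits of 5 assembly complexes, 1 bar per gene and 1 library per group; blue bars are genes of the 44 and grey bars other ribosome assembly genes. The dashed line marks a 2-fold lower value. Wdr43, Heatr1 and Wdr75 of UTP-A, Mphosph10 and Nop58 pass it, while Imp3, Pes1 and Tbl3 lie above 0.

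Subunits of the same complex were compared after their values had been seen, with the complexes filled in from other ribosome assembly genes. In UTP-A, Wdr75 was at 81.0 and 39.3 TPM and Nol11 at 48.9 and 27.4 TPM, so 3 of 6 subunits were called lower, whereas Utp4 was at 129 and 102 TPM. That count stands beside 7.06% of all measured genes, and beside 23% of those whose transcripts hold under 45% GC, as those of Wdr43 and Wdr75 do. After subtraction of the GC trend the 3 were at -0.85 (Heatr1), -0.63 (Wdr43) and -0.41 (Wdr75), none past 2-fold. In UTP-B none of 6 was called, and the 6 differed more among themselves than the 3 above. Utp18, at 35.1 and 19.1 TPM, had the lowest difference, -0.85, and Tbl3, at 59.9 and 64.9 TPM, the highest, 0.11. The 3 proteins of the MPP10 complex spanned the widest range before GC adjustment. Mphosph10 was 2.59-fold lower at 15.04 and 5.81 TPM, Imp4 differed by -0.07 and Imp3 by 0.56. With the GC trend subtracted, MPP10 ran from -0.46 (Mphosph10) to 0.45 (Imp3). UTP-A then spanned a wider range, from -0.85 (Heatr1) to 0.18 (Utp15). Snu13, the remaining core protein of the box C/D snoRNP, was at 152 and 139 TPM, within 1.5-fold like Fbl and Nop56.

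A wider list of 126 other ribosome assembly genes was examined in the same way, of which 123 were matched to the files by symbol and all of those were measured. Of the 123, 10 were called lower, or 8.13%, against 7.06% of all measured genes, and none higher; 97 were below 0, with a median difference of -0.25. All 10 were among the 35 genes of the list under 45% GC, a range in which 23% of all genes were called lower. By sublist, 7 of 40 were called for the small subunit, 1 of 50 for the large subunit, 2 of 16 among the exosome and processing nucleases, none of 10 snoRNP assembly factors and none of 7 other polymerase I genes. The lowest difference was that of Esf1, a processome factor, at 9.66 and 2.56 TPM, a difference of -1.58. Pno1, which prepares the small subunit for its last cut, was at 72.1 and 30.8 TPM, 2.34-fold lower, and Riok2, a late kinase, at 35.9 and 16.2 TPM, a difference of -1.10. The highest difference among the small subunit genes, 0.15, was that of Nol6, at 42.1 and 47.0 TPM.

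Mdn1, the giant ATPase that remodels the large subunit precursor, was at 19.0 and 5.91 TPM, 3.21-fold lower, a difference of -1.53. The highest difference among the large subunit genes, 0.32, was that of Nop53, at 79.3 and 99.4 TPM. In the exosome list, Dis3 and Mtrex, a nuclease and the helicase that feeds the nuclear exosome, were at 32.8 and 39.2 TPM under shRFP and at 13.9 and 17.1 TPM under shETV4. Exosc4, a ring subunit at 42.0 and 52.9 TPM, had the highest difference there, 0.33. Differences of the snoRNP assembly factors ran from -0.86 for Naf1, at 22.4 and 11.9 TPM, to 0.10 for Pih1d1, at 64.5 and 69.1 TPM. Those of the other polymerase I genes ran from -0.80 for Taf1d, at 36.3 and 20.4 TPM, to 0.03 for Taf1c, at 10.9 and 11.2 TPM. With the GC trend of all genes subtracted, Taf1d was at -0.03 and the lowest value of its list was -0.41.

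**Figure D3:**
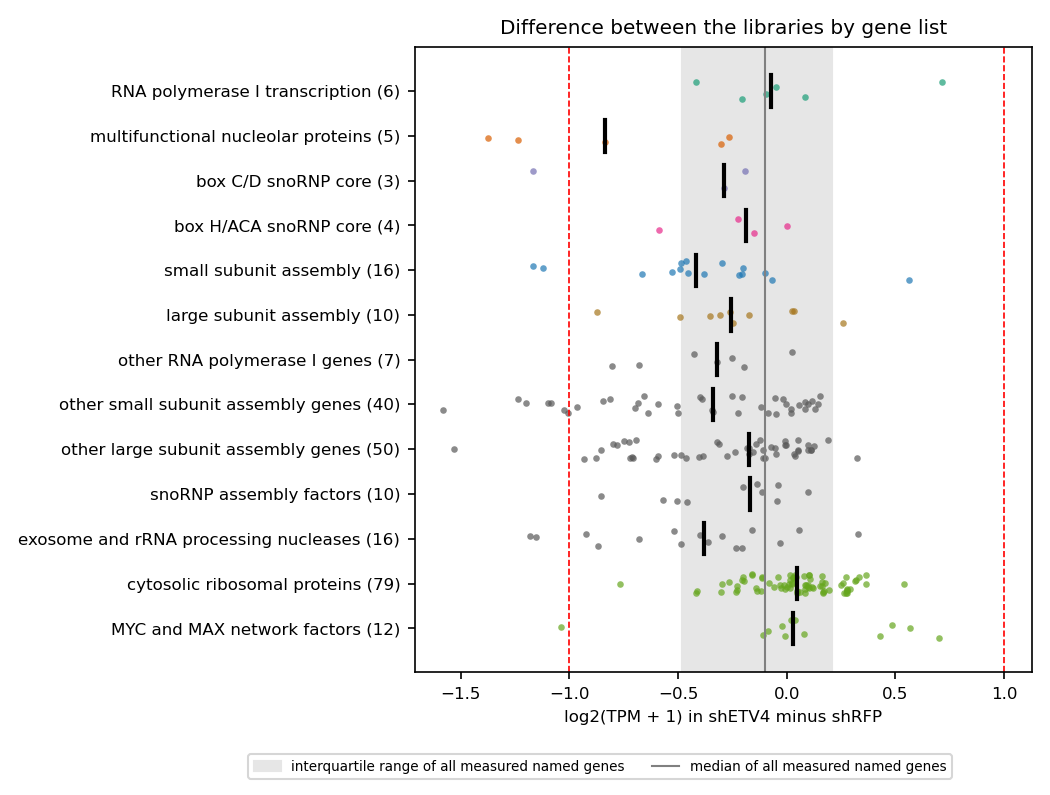
Difference in log2(TPM + 1), shETV4 minus shRFP, for each measured gene of each list (points, number of genes in parentheses), with a black bar at the list's median; point height within a row is random. The grey band is the interquartile range of all measured named genes, and dashed lines mark 2-fold. The medians of the 44 genes' groups run from -0.84 to -0.07, while those of cytosolic ribosomal proteins and MYC network factors are 0.05 and 0.03.

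Genes of the ribosomal proteins themselves had a median near 0. Of 79 cytosolic ribosomal protein genes 26 were below 0, none was called in either direction, and the median difference was 0.05. Rpl5 had the lowest difference, -0.77, at 122 and 71.3 TPM, and Rpl39 the highest, 0.54, at 1132 and 1648 TPM. With the GC trend of all genes subtracted, Rpl5 was at -0.17 and no longer the lowest, and the list ran from -0.31 to 0.73. Rpl5 also shared 26.7% of its exonic bases with exons of other genes. Whether the lists differ could not be tested with 1 library per group. Myc was at 280 TPM under shRFP and at 264 TPM under shETV4. Of 12 genes of its network, 1 was called lower, or 8.33%, against 7.06% of all measured genes, and none higher. The called gene was Mga, a partner of MAX, at 30.6 and 14.4 TPM. Its transcripts hold 42.9% GC, and its difference was -0.43 with the GC trend of all genes subtracted. Mxd4, an antagonist of MYC, had the highest difference, 0.70, at 33.2 and 54.5 TPM.

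Transcript base composition moved with the differences. The 5 genes called lower had a GC content, as the median over a gene's annotated transcripts, between 42.1% (Npm1) and 47.9% (Heatr1), against a median of 50.9% over the 44. Of the 7 genes under 45% GC, 4 were called lower and all 7 were below 0, with a median difference of -1.17. Of the 2460 measured genes under 45%, 23% were called lower, 1.46% higher and 90.1% were below 0, and the median was -0.65. In the same range of GC content, Wdr12 and Wdr36 had differences of -0.25 and -0.46. Between 45% and 50% GC, 1 of 11 genes was called lower (Heatr1), with a median of -0.49 against -0.25 for all genes of that range. No gene of the 44 at 50% or more was called, and the medians were -0.26 between 50% and 55% and -0.15 at 55% or more, where all genes had medians of 0.02 and 0.15. In each of the 4 ranges the median of the nucleolar genes was thus below that of all genes. Across the 44 genes, which share both libraries, the rank correlation of difference with GC content was 0.66, and across all 12947 annotated genes 0.52. With median transcript length it was 0.27 and with mean level 0.16 across the 44.

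**Figure D4:**
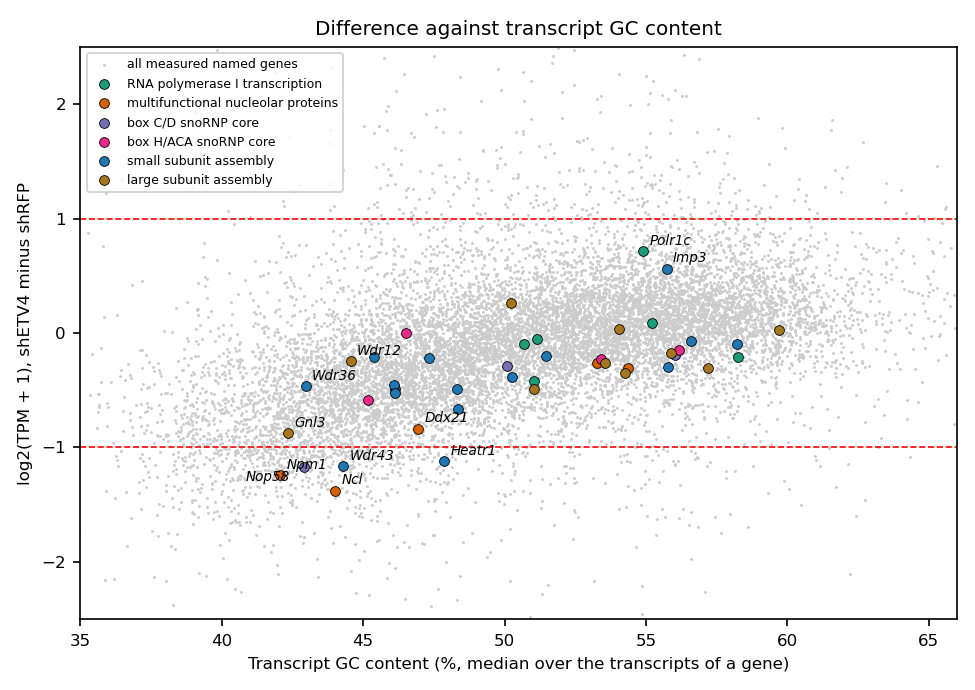
Difference in log2(TPM + 1), shETV4 minus shRFP, against transcript GC content in percent, with grey points for all measured named genes and coloured points for the 44 genes by role; 159 grey genes lie outside the axes. Dashed lines mark 2-fold. Both clouds slope upward to the right, and the 5 genes called lower sit at the left, between 42.1% and 47.9% GC.

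When the running median of all genes over GC content was subtracted, no gene of the 44 was past 2-fold in either direction. Among all genes with this adjustment 2.32% were called lower and 4% higher. Heatr1 and Ncl were the lowest, at -0.85 and -0.83, followed by Wdr43 at -0.63, Nop58 at -0.56, Npm1 at -0.54 and Ddx21 at -0.53. The median was -0.26 and 35 of the 44 genes were below 0, against 50.1% of all genes. By role group the adjusted medians were -0.53 for multifunctional nucleolar proteins, -0.32 for box C/D and -0.22 for box H/ACA. They were -0.25 for the large subunit, -0.20 for the small subunit and -0.02 for polymerase I transcription. Of the other genes under 45% GC, Wdr36 and Wdr12 passed 0, at 0.14 and 0.28, and Gnl3 was at -0.21. The value of Gnl3 depended on the transcript used, and with the GC content of the longest transcript it was -0.61. Polr1c and Imp3 remained the highest, at 0.59 and 0.45. For the 123 other assembly genes the adjusted median was -0.11, with 88 below 0 and none called.

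**Figure D5:**
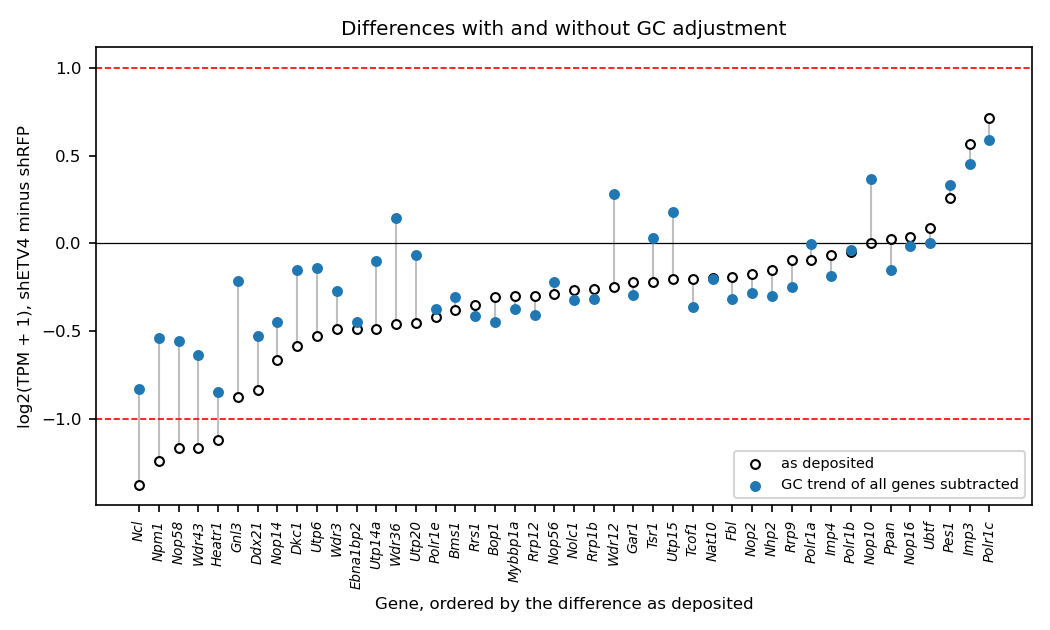
Difference in log2(TPM + 1), shETV4 minus shRFP, for the 44 genes in order of the deposited difference (open circles) and after the GC trend of all genes was subtracted (filled circles); grey lines join the values of a gene. Dashed lines mark 2-fold. After subtraction the lowest values are -0.85 (Heatr1) and -0.83 (Ncl), and 35 of 44 filled circles lie below 0.

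Of the 44 genes, 36 have a promoter entry in the RefSeq table on GRCm38.p6, each 300 bases long with 250 before and 50 after the start site. The stretches below run from 150 bases before the RefSeq start to 30 after it, 5′ to 3′ on the strand of the gene. For each gene shown, that start differs from the edge of the gene bounds given above. The stretches of Wdr43 and Heatr1 lie wholly inside those bounds. Stretches are shown for the 4 called genes with an entry and for Polr1c, the gene with the highest difference. Capitals mark a match to CACGTG, the E-box that MYC and MAX bind, or to CCGGAAG, a core bound by ETS factors; both strands were searched.
Ncl, chr1:86359426-86359605, minus strand: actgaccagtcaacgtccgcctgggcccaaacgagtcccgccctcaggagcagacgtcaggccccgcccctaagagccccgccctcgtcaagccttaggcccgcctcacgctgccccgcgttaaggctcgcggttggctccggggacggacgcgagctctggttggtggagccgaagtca
Nop58, chr1:59684856-59685035, plus strand: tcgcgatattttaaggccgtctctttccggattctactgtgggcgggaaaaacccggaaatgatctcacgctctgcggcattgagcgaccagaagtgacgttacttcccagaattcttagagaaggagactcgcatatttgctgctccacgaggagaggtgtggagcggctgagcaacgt
Wdr43, chr17:71616065-71616244, plus strand: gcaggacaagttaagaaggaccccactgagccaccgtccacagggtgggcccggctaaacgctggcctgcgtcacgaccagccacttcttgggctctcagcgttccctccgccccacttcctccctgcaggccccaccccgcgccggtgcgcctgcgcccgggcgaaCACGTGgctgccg
Heatr1, chr13:12395225-12395404, plus strand: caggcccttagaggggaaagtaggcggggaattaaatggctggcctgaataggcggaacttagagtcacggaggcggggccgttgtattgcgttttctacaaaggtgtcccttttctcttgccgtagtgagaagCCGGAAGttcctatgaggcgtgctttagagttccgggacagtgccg
Polr1c, chr17:46248016-46248195, minus strand: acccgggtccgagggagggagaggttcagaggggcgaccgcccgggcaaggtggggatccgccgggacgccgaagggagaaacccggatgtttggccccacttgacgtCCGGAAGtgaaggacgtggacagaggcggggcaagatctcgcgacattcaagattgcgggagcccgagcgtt

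Of the 4 called genes with an entry, 1 held the E-box and 1 the ETS core. The E-box of Wdr43 began at base 18 counted from the RefSeq start. The ETS core began 16 bases before the RefSeq start of Heatr1 and 42 bases before that of Polr1c, so genes at opposite ends of the range carried it. Over the full 300 bases neither motif was found for Ncl or Nop58. Only exact matches were counted. The Nop58 stretch holds CCGGAAA and its reverse complement TTTCCGG, which differ from the searched core in 1 letter. Whether an ETS factor binds there was not tested. Counting a gene once, 7 of the 36 genes held the E-box (Imp4, Mybbp1a, Nop2, Pes1, Tsr1, Utp20 and Wdr43). By promoter entry that was 15.9% of 44, against 7.15% of all 32851 promoters and 10% of the promoters of measured genes. The ETS core was found for 12 genes, in 27.3% of their promoter entries, against 8.86% of all promoters and 18% of those of measured genes. Both shares were higher still in the 119 promoters of the other ribosome assembly genes, 19.3% for the E-box and 44.5% for the ETS core. Genes with the E-box had a median difference of -0.22 and genes without it -0.26; for the ETS core the medians were -0.24 and -0.25. These matches are descriptions of the letters in a window.

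Several of the 44 genes carry snoRNA genes inside their bounds on the same strand, so that an intron of the host supplies the guide RNA. This was annotated for 8 of them (Ncl, Nop56, Nop58, Dkc1, Wdr43, Tsr1, Ppan and Gnl3), with 23 snoRNA genes in all. The hosts had a median difference of -0.73 and 3 of 8 were called lower, while the other 36 genes had a median of -0.25 with 2 called. Hosts were also poorer in GC, at a median of 44.7% against 51.3%, and after GC adjustment the medians were -0.22 and -0.28. All 23 hosted snoRNA genes were listed at 0 TPM in both libraries, so the guide RNAs themselves give no comparison.

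The rule by which reads were shared out between a gene and its copies or neighbours is not stated. Of the 44 genes, 14 had a match of at least 300 bases at 90% identity elsewhere in the annotated transcripts, and for 4 of them such a match reached 1 TPM. The 8 matches of Npm1 summed to 10.4 TPM under shRFP and 4.37 TPM under shETV4, 0.746% and 0.738% of the level of Npm1. Those of Fbl summed to 52.3 and 39.3 TPM and those of Wdr12 to 4.30 and 1.58 TPM, so the values of these genes are less certain. The match with the highest shRFP level was Tulp4 for Fbl and Pms1 for Wdr12. Each sum took the whole TPM of a matching gene, of which the match may cover only a part. The sums therefore do not measure reads drawn from Fbl or Wdr12. Tsr1 was the only gene with more than 20% of its exonic bases in exons of another gene, Srr, at 32.3%. The 5 genes called lower shared at most 2.12% (Ncl).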

How the data were processed

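Libraries were prepared from total RNA using a TruSeq kit of Illumina (labels' protocols). Per the file headers each deposited file holds 1 value per gene; the headers give no unit, which was read as TPM, computed by the authors, from the column sums. The submitters' processing notes name HISAT2, RSEM and GRCm38.p4 and say nothing of their roles or versions; the annotation, strand setting and any filter remain not given in the sources used here. Loci without a gene symbol stayed out of all counts.

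The members, lists and alternatives were chosen with earlier results of these data known. Differences were taken as log2(TPM + 1). Genes named beyond the 44 were, for each list, the called genes (at most 4 in each direction) and those with the lowest and highest difference. Etv4, Myc, the complex subunits, 4 markers and the genes named for shared sequence (Srr, Tulp4 and Pms1) were added. Those markers and the complexes were chosen after values were seen. GENCODE M21 on GRCm38 gave coordinates, GC content, length and exon overlap; promoters came from RefSeq. Polr1f, Polr1g and Polr1h matched no symbol. The GC adjustment subtracted the running median over 50 bins of GC content. The software was BLAST+ 2.17.0, matplotlib 3.10.9, scipy 1.17.1, pandas 2.3.3 and numpy 2.4.6 under Python 3.11.15. The calling and the adjustment were tried on simulated data, where recovery was counted for planted 4-fold changes, larger than any among the 44. Those were placed without regard to GC content, so recovery of changes near 2-fold at low GC content was not tested. Depth is unknown from TPM, and with 1 library per group no test was made.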

Additional observations from a re-analysis of the deposited data

How the results depend on the processing

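The count of 5 members called lower was the same under pseudocount 0.1, the median ratio set to 1 and the trimmed mean scale. It was also 5 with no filter, a filter at 5 TPM, sums of rows and without genes sharing 20% of their exonic bases. Those last settings could not change it. Every member was at 18.17 TPM or more in both libraries and had 1 row, and the only member dropped for sharing, Tsr1, was not called. With pseudocount 5 the count was 4, as Heatr1 came to -0.99. The GC adjustment gave 0 members and 0 pathway genes called lower, and a pathway median of -0.11. With the longest transcript in place of the median over transcripts, an alternative chosen after seeing the data, it gave 0 members and 1 pathway gene (Mdn1), with medians of -0.24 and -0.14. A call at 1.5-fold gave 9 members lower and 1 higher and 37 pathway genes lower, and a call at 3-fold gave 0 and 0. With pseudocount 5, 3 pathway genes were called lower. Without Ncl and Npm1, also chosen after seeing the data, 3 members were. Members' medians ran from -0.29 to -0.20 over these alternatives, all below 0. On the trimmed mean scale, which raises differences by up to 0.08, Polr1b and Imp4 moved above 0, at 0.03 and 0.01. No paired analysis was possible because each group has 1 library. For 14 single genes followed, 168 values were compared with the main setting: 149 kept their status, 16 lost a call, 3 gained a call and 0 were reversed. A reversal needed 2-fold in the other direction, which most of these settings could not give. With no filter, a filter at 5 TPM, sums of rows and exclusion of shared exons, each of the 14 genes kept its main value. Their status could not change there, so the count of 149 overstates how stable the calls were. All 5 called genes lost the call under the GC adjustment. The 14 left out Wdr36, Wdr12, Utp15 and Tsr1, which were above 0 after that adjustment. The cause of these shifts was not tested.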
